A study of Mus musculus with 16 samples.

Results

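The NF-κB family is described here by 10 genes, the 5 subunit genes Nfkb1, Nfkb2, Rel, Rela and Relb and the 5 genes Nfkbia, Nfkbib, Nfkbie, Nfkbiz and Bcl3 of the IκB proteins. They were chosen by gene symbol, because nuclear entry of the p50 subunit was one of the readouts of the study, and they make up 10 of the 47069 genes in the count table. Each of the 10 symbols had a single row. The cells were macrophages grown from the bone marrow (BMMs) of C57BL/6 mice that were 8 to 10 weeks old, and were harvested at day 7 of culture in L929-conditioned medium. Both groups had been primed overnight with 10 ng/mL IFNγ and then received 100 ng/mL LPS together with immune complexes of ovalbumin and rabbit IgG (LPS/ICs) for 1 hr. They differed in the agent given. For 1 group this was 25 μM of DAPT, a gamma-secretase inhibitor (GSI), and for the other the vehicle DMSO at 0.01%. The labels do not give the DMSO content of the GSI group. By the paper's methods the cells were kept with either agent overnight ahead of activation, while some figure legends give a shorter pretreatment. Whether a difference was present before the LPS/ICs was not measured. Each group had 2 replicates, and the comparison asks which NF-κB transcripts differ when gamma-secretase, the enzyme that releases the active Notch fragment, is inhibited. The labels do not say whether the replicates came from separate mice or cultures, so the p-values rest on the spread between these libraries, which may be technical. The test also moderates the variance of each gene with that of the other genes. The p-values and intervals therefore do not measure a gene's own spread alone. All 4 libraries were activated, and the levels of resting cells were therefore not measured here. Gamma-secretase cleaves many membrane proteins besides Notch, and the GSI is not specific for the Notch pathway.

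NF-κB is a family of dimeric transcription factors. In resting macrophages the dimers are held in the cytoplasm by IκB proteins. Signals from Toll-like receptors and Fcγ receptors activate the IκB kinase (IKK), the IκB proteins are degraded, and the freed dimers enter the nucleus. Nfkb1 and Nfkb2 encode the precursors p105 and p100, which are shortened to p50 and p52 and have no activation domain, whereas Rel, Rela and Relb encode c-Rel, p65 and RelB, which do. IκBα, IκBβ and IκBε, from Nfkbia, Nfkbib and Nfkbie, are the cytoplasmic inhibitors. IκBζ and Bcl-3, from Nfkbiz and Bcl3, are nuclear relatives that bind p50 or p52 dimers and can raise or lower transcription. A count per gene does not separate p105 from p50 or p100 from p52, which are products of the same mRNA, and says nothing of protein level or nuclear entry.

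The GSI libraries held less mRNA of 3 members and more of 1 member. Rel fell by 39.4%, Bcl3 fell by 28.3% and Nfkb1 fell by 26.2%, while Relb was higher by 0.21 on the log2 scale. The call of Relb was lost with DESeq2 and without either of 2 libraries, which leaves none of the members higher. The other 6 members, Rela and Nfkb2 among the subunits and Nfkbia, Nfkbib, Nfkbie and Nfkbiz among the IκB genes, did not pass the test. With edgeR's quasi-likelihood test and Benjamini-Hochberg adjustment over 13211 genes, 4 of 10 members had an FDR under 0.05, whereas 40.8% of all genes tested did. For lower levels the count was 3 of 10 against 21.9% of all genes, and for higher levels 1 of 10 against 19.0%. The share of members called was thus near that of all genes. No member had an absolute log2 fold change above 1.5 beside an FDR under 0.05, which 2.91% of all genes had. The median log2 fold change was -0.07 over the members and 0.01 over all genes tested. Levels are given as CPM, the counts of a gene scaled to a common library size. Among the 5974 genes with a mean of at least 20 CPM, as all 10 members had, 49.0% were called (26.6% lower and 22.4% higher).

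**Figure D1:**
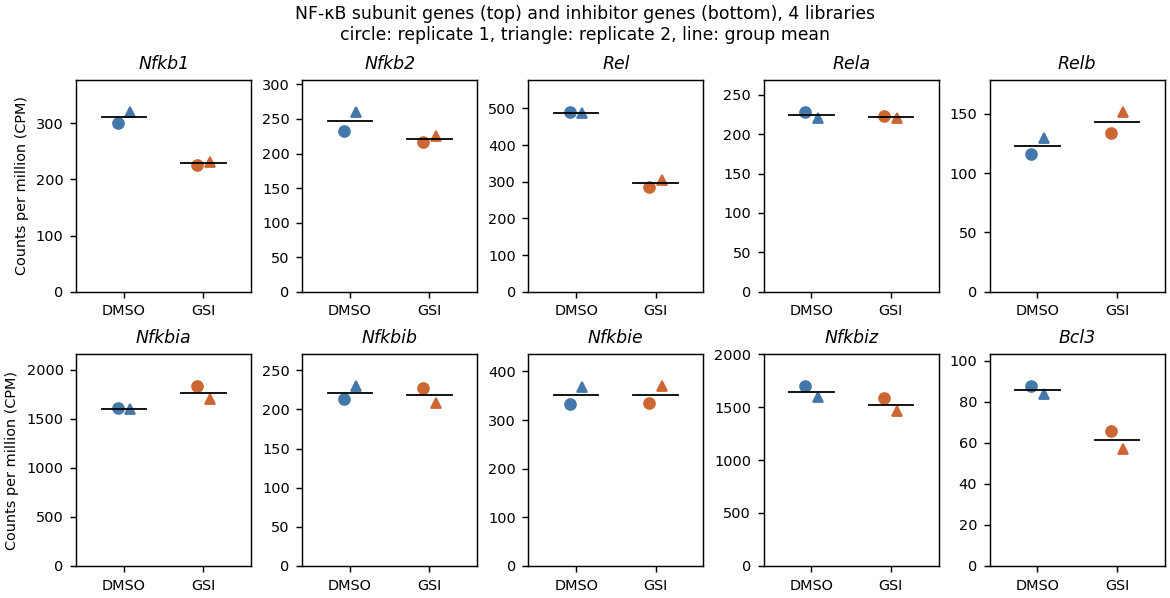
Level of each member in the 4 libraries, in CPM on a linear axis from 0, with the 5 subunit genes in the upper row and the 5 IκB genes in the lower row. Circles are replicate 1, triangles replicate 2, and lines the group means of 2 libraries. Rel, Nfkb1 and Bcl3 stand clearly lower in both GSI libraries, Relb is higher in both, and Rela, Nfkbib and Nfkbie overlap between the groups.

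The promoter windows of 7 of the 10 members were found in the RefSeq table for GRCm38.p6, which runs from 250 bases before a transcription start to 50 bases after it. Nfkb1, Relb and Nfkbiz had no window in the set used here, and their promoters were not examined. Nfkb2 had 3 windows, which gives 9 in all. The κB consensus motif, the sequence to which NF-κB dimers bind, was searched on both strands and occurred in 6 of 9 windows, belonging to Nfkb2, Rel, Nfkbia and Bcl3, as against 5.8% of all 32851 windows. Windows of Rela, Nfkbib and Nfkbie did not hold it. A looser pattern of GGG and CC with any 5 bases between them, which covers every consensus match, was in 8 of 9 windows and in 50.8% of all windows. The letters TGGGAA, the core bound by the Notch effector RBP-J, were present in the windows of Rel and Nfkbib and in 25.6% of all windows. The 4 windows below are shown because each holds the κB consensus, 2 of them in genes that fell with GSI (Rel and Bcl3) and 2 in genes that did not pass the test (Nfkbia and Nfkb2). Capitals mark the consensus matches and, in Rel alone, also the later TGGGAA. Rel lies on the minus strand (chr11:23770920-23771219), as do Bcl3 (chr7:19822706-19823005) and Nfkbia (chr12:55492598-55492897), whereas the first window of Nfkb2 lies on the plus strand (chr19:46304487-46304786).
Rel: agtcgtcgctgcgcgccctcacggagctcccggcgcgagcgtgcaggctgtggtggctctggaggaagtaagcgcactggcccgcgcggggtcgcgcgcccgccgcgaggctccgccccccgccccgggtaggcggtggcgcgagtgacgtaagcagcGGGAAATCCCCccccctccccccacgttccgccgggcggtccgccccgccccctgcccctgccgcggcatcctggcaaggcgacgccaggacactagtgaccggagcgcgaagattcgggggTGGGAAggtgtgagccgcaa
Bcl3: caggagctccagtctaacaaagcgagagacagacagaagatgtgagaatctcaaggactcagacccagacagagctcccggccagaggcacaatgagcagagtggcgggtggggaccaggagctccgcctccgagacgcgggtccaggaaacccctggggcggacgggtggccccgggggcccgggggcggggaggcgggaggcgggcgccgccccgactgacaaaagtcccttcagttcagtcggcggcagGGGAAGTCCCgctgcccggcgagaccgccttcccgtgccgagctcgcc
Nfkbia: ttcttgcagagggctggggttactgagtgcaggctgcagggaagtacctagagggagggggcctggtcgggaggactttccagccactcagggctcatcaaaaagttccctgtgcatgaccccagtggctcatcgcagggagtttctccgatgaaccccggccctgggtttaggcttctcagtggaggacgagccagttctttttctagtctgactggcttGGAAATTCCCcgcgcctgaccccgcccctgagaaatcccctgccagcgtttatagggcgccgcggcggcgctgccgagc
Nfkb2: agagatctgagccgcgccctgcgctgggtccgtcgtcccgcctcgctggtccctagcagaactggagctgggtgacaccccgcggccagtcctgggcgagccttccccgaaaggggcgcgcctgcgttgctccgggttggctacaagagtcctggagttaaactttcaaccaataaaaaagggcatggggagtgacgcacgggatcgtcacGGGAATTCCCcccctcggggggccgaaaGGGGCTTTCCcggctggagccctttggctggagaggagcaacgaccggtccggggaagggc
Counted from the start site, the capitals in Rel span bases -92 to -82, where 2 overlapping matches share all but 1 base at either end, and TGGGAA spans 31 to 36. In Bcl3 the match lies just past the start, at bases 3 to 12. In Nfkbia it lies at -29 to -20, and in Nfkb2 at -39 to -30 and at -11 to -2. Other Nfkb2 windows, which overlap each other, hold a further site that was counted in both. These matches describe letters in a window, and binding was not measured. Genes with a consensus match thus included members that fell and members that were not called.

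Rel encodes c-Rel, a subunit found mainly in blood and immune cells. It was the member with the largest change. Its level was 489 and 487 CPM in DMSO replicates 1 and 2 and 286 and 305 CPM in GSI replicates 1 and 2. Both GSI libraries lay far below both DMSO libraries, and the gap was many times the distance between replicates. The log2 fold change was -0.72 (SE 0.0712, 95% interval -0.87 to -0.57, edgeR quasi-likelihood FDR 9.11e-08). Among the genes with a mean of at least 20 CPM, 94.9% had a smaller absolute log2 fold change. The gene lies on chr11:23736847-23770970 of GRCm38, on the minus strand, with no exon shared with another gene. Depth did not limit the value, since the lowest library still held 13845 Rel counts.

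Nfkb1, the source of p105 and p50, was measured at 301 and 320 CPM with DMSO and at 226 and 232 CPM with GSI. The 2 groups did not overlap, and the GSI replicates were closer to each other than the DMSO replicates were. This gave a log2 fold change of -0.44 (SE 0.0701, 95% interval -0.58 to -0.29, edgeR quasi-likelihood FDR 4.2e-05), and 83.3% of the genes with at least 20 CPM changed less. Nfkb1 occupies chr3:135584655-135691547 on the minus strand and shares no exon base with other genes. Its decrease was smaller than that of Rel, and the difference between the 2 genes was not tested.

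The paralog Nfkb2 encodes p100, which as a precursor also acts as an inhibitor of RelB. It had 233 and 260 CPM with DMSO and 217 and 226 CPM with GSI. Both GSI libraries were below both DMSO libraries, but the distance from DMSO replicate 1 to GSI replicate 2 was smaller than the distance between the DMSO replicates. A log2 fold change of -0.15 was fitted (SE 0.0732, 95% interval -0.31 to -0.0016), with an edgeR quasi-likelihood FDR of 0.0985, and was not called. On chr19:46304320-46312385, plus strand, its exons share 830 bases with 2 genes on the other strand. One of them, Psd, had between 6 and 40 counts per library, against at least 10026 for Nfkb2, and the other was not analysed here.

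Rela, the gene of p65, had nearly the same level throughout. It was measured at 228 and 220 CPM with DMSO and at 224 and 221 CPM with GSI, and the groups overlapped. The log2 fold change was -0.011 (95% interval -0.15 to 0.13, edgeR quasi-likelihood FDR 0.911). The interval leaves room for a change of up to 0.15 on the log2 scale in the lower direction. Rela lies on chr19:5637483-5648130, plus strand.

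Relb encodes RelB, the partner of p52 in the alternative pathway. Its level was 116 and 130 CPM in the DMSO libraries and 134 and 151 CPM in the GSI libraries. The GSI libraries were both higher, but GSI replicate 1 was closer to DMSO replicate 2 than to its own replicate. The log2 fold change was 0.21 (SE 0.0780, 95% interval 0.05 to 0.38, edgeR quasi-likelihood FDR 0.0335), and 55.5% of the genes with at least 20 CPM had a smaller one. This call was lost without DMSO replicate 1 (0.13, FDR 0.318), without GSI replicate 2 (0.12, FDR 0.257) and with DESeq2 (0.21, adjusted p 0.0548). The gene lies on chr7:19606217-19629438, minus strand.

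Among the cytoplasmic inhibitors, Nfkbia was by far the most abundant. IκBα is itself a classical NF-κB target, and its resynthesis ends the response. Nfkbia had 1607 and 1597 CPM with DMSO and 1832 and 1699 CPM with GSI. Both GSI libraries lay higher, yet they differed from each other by more than GSI replicate 2 did from the DMSO libraries. Its log2 fold change was 0.14 (SE 0.0745, 95% interval -0.02 to 0.30, edgeR quasi-likelihood FDR 0.141), and it was not called. Nfkbia lies on chr12:55489410-55492647, minus strand.

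Nfkbib and Nfkbie, the genes of IκBβ and IκBε, did not separate the groups. Nfkbib was at 213 and 230 CPM with DMSO and at 228 and 209 CPM with GSI (log2 fold change -0.020, 95% interval -0.17 to 0.13, edgeR quasi-likelihood FDR 0.855). Nfkbie was at 334 and 367 CPM with DMSO and at 335 and 369 CPM with GSI (0.0063, 95% interval -0.15 to 0.16, edgeR quasi-likelihood FDR 0.956). In each gene the replicates of 1 group spanned most of the range of the other. Nfkbib lies on chr7:28758251-28767512, minus strand, and shares 356 exon bases with 2 genes of the other strand. One of these, Sirt2, shares 42 bases and had 4804 to 6952 counts per library, against 9160 to 13020 for Nfkbib, and without the strand setting of the counting its part in the Nfkbib counts is unknown. By contrast Nfkbie, on chr17:45555703-45563169, plus strand, shares none.

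The nuclear relatives differed from each other. Nfkbiz, whose IκBζ protein is needed for a set of secondary response genes, had 1695 and 1592 CPM with DMSO and 1582 and 1461 CPM with GSI. The groups met almost without a gap, and the log2 fold change of -0.11 (95% interval -0.27 to 0.05, edgeR quasi-likelihood FDR 0.259) was not called. Bcl3 was the least abundant member in CPM, at 87.5 and 83.9 CPM with DMSO and at 65.9 and 57.0 CPM with GSI. Both GSI libraries were well below both DMSO libraries. The log2 fold change of Bcl3 was -0.48 (SE 0.0777, 95% interval -0.64 to -0.32, edgeR quasi-likelihood FDR 4.9e-05), and 85.6% of the genes with at least 20 CPM changed less. Nfkbiz lies on chr16:55811375-55838899 and Bcl3 on chr7:19808462-19822770, both on the minus strand, and the antisense gene that shares 161 exon bases with Bcl3 had at most 3 counts in a library.

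**Figure D2:**
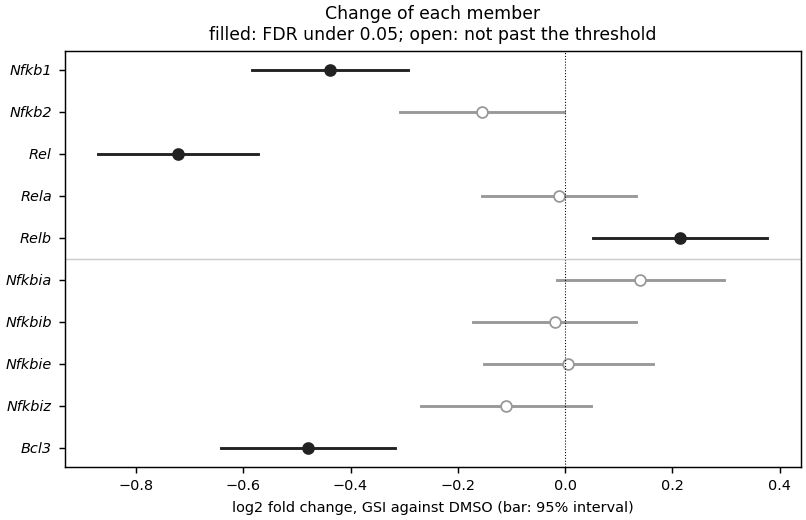
Log2 fold change of each member (GSI against DMSO, 2 libraries each) from edgeR's quasi-likelihood fit, with 95% intervals as bars. Filled points have an FDR under 0.05, and subunit genes stand above the grey line and IκB genes below it. Rel (-0.72), Bcl3 (-0.48) and Nfkb1 (-0.44) lie left of 0 with their whole intervals, and Relb (0.21) lies right of it.

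Over the 10 members the libraries of the 2 groups did not overlap in 7, which was as frequent as among all genes tested (70.6%). Rel, Nfkb1 and Bcl3 were the members in which the gap between groups exceeded the distance between the replicates of either group. In Relb, Nfkb2, Nfkbia and Nfkbiz the gap between the groups was smaller than the distance between the replicates of at least 1 group.

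The levels of the members were compared with each other after division by gene length, as CPM per kb of exon. With DMSO the order was Nfkbia (995), Nfkbiz (328), Nfkbie (115), Nfkbib (102), Rela (73.0), Rel (65.4), Nfkb2 (53.8), Bcl3 (34.6), Relb (31.7) and Nfkb1 (25.8), each a mean of 2 libraries, and no neighbours overlapped. Thus the 4 genes at the top were all IκB genes. With GSI the first 5 kept their places, Nfkb2 (48.3) stood above Rel (39.6), Relb (36.7) overlapped with Rel, and Bcl3 (24.8) and Nfkb1 (19.0) came last. The place of Nfkb1 rests on the length chosen, because all its annotated exons cover 12061 bases and its principal transcript 4117. Per kb of principal transcript Nfkb1 reached 75.4 with DMSO, between Nfkb2 (78.5) and Rel (65.4), and 55.7 with GSI, below Relb (64.6), while the first 5 genes kept their order. By this length Nfkb2 overlapped with both Rela and Nfkb1 in the DMSO libraries.

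The make-up of the subunit transcripts changed with Rel and Relb. Of the summed level per kb of the 5 subunit genes, Rel made up 26.7% and 25.7% with DMSO and 18.1% and 18.6% with GSI. Rela went from 30.2% and 28.3% with DMSO to 34.4% and 32.7% with GSI. Relb likewise went from 12.2% and 13.2% with DMSO to 16.3% and 17.7% with GSI. A higher share of Rela therefore stood beside a level that was not called as different. The share of Nfkb1 went from 10.2% and 10.5% in the DMSO libraries to 8.86% and 8.73% in the GSI libraries, and that of Nfkb2 was between 20.7% and 22.4% in all 4 libraries. Per kb of principal transcript the share of Nfkb1 was higher, at 20.9% and 21.2% with DMSO and at least 17.7% with GSI, and exceeded that of Rel, at 18.8% and 17.9% with DMSO against 12.5% and 12.8% with GSI, and both shares were again lower with GSI. Rel over Rela, the main activating subunits, gave a ratio of 0.884 and 0.909 with DMSO and of 0.527 and 0.568 with GSI. For Relb over Nfkb2, the pair of the alternative pathway, the DMSO libraries gave 0.588 and 0.590 and the GSI libraries 0.728 and 0.791. These shares and ratios combine members that were chosen with results known and were given no test.

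**Figure D3:**
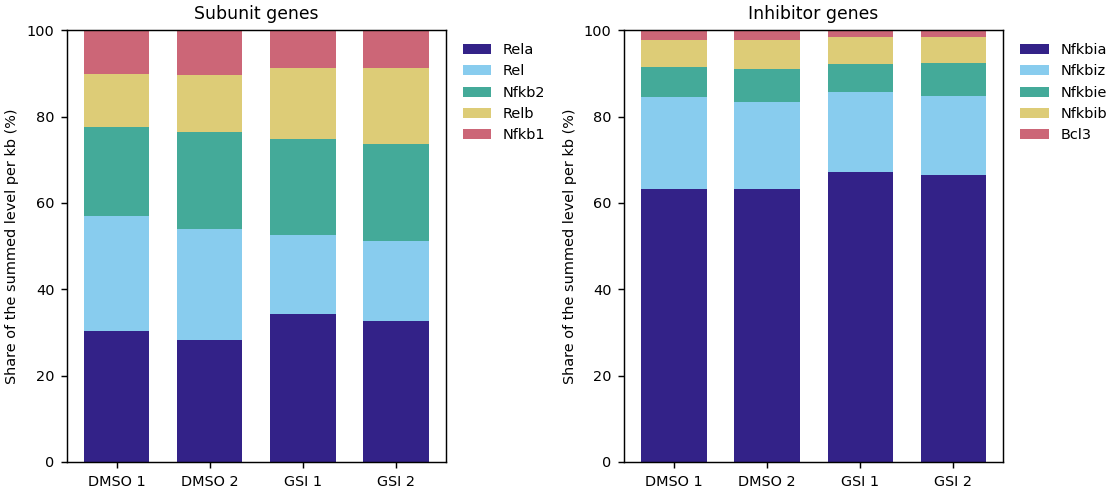
Share of each gene in the summed level per kb of the 5 subunit genes (left) and of the 5 IκB genes (right), in percent, with a bar for each library. Rel takes 26.7% and 25.7% of the subunit sum with DMSO and 18.1% and 18.6% with GSI, while Nfkbia takes 63.2% to 67.1% of the IκB sum.

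Nfkbia alone made up 63.2% of the summed IκB level in both DMSO libraries and 67.1% and 66.5% of it with GSI, and Nfkbiz made up 21.4% and 20.2% with DMSO and 18.6% and 18.4% with GSI. The IκB sum exceeded the subunit sum by a factor of 6.44 and 6.19 with DMSO and of 8.00 and 7.20 with GSI. On the log2 scale the ratio of subunits to IκB genes was 0.27 lower with GSI, and the groups did not overlap. The subunit sum was 245 and 254 CPM per kb with DMSO and 212 and 220 with GSI, whereas the IκB sum was 1579 and 1570 against 1695 and 1587. Leaving out Nfkbia, which was not called, made the difference -0.12, as the sum of the other IκB genes was also lower with GSI (557 and 532 against 581 and 578). These are ratios of mRNA, and amounts of protein were not measured.

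Genes whose pattern over the 4 libraries was nearest to that of Nfkb1 were found by the Euclidean distance between centred log2 CPM, among 7580 genes with a mean of at least 10 CPM. They were Itpr3 (0.0143), Gosr2 (0.0147), Ywhah (0.0184), Sptan1 (0.0246) and Tes (0.0291), of which none is an NF-κB gene. With 4 libraries in 2 groups such a distance mainly reflects the size of the change, and all 5 had log2 fold changes between -0.45 and -0.41.

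The remaining family genes were Nfkbid, the gene of another nuclear IκB protein, which was named after its values were seen, and Nfkbil1, which carries an IκB-like name. Nfkbid was at 191 and 202 CPM with DMSO and at 198 and 200 CPM with GSI and was not called (log2 fold change 0.02, edgeR quasi-likelihood FDR 0.861). Nfkbil1 was higher with GSI, at 5.18 and 4.92 CPM with DMSO and 9.48 and 8.61 CPM with GSI (0.84, edgeR quasi-likelihood FDR 5.9e-06).

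Upstream of the subunits, the IKK complex and the adaptors and ligases that lead to it from Toll-like and Fcγ receptors were represented by 37 genes, of which 10 were lower, 5 were higher and 22 were not called (median log2 fold change -0.05). The 15 called of 37 lay near the 40.8% of all genes tested. Among the called genes the largest changes were those of Ticam1 (-0.68), the adaptor TRIF, Ikbkb (-0.45), the catalytic IKKβ, and Irak4 (-0.42), a kinase of the MyD88 complex. Ikbkb was measured at 119 and 124 CPM with DMSO and at 89.6 and 88.4 CPM with GSI. The other IKK subunits, named after their values were seen, were Chuk (-0.19, edgeR quasi-likelihood FDR 0.0486), which was lower, and Ikbkg (0.35, FDR 7.8e-04), which was higher. Map3k14, the kinase NIK that drives the shortening of p100, was also named after its values were seen and was lower (-0.41, edgeR quasi-likelihood FDR 2.2e-04). Genes of the IKK complex thus moved in both directions.

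Of 20 negative regulators of NF-κB, 6 were lower, 2 were higher and 12 were not called, with a median of -0.12, again near the 40.8% called among all genes. Zc3h12a (-0.43), which encodes the RNase Regnase-1, and Tnip3 (-0.38), a partner of A20, were lower, and Socs1 (0.46), a suppressor of cytokine signaling, was higher. For 14 genes of nuclear import, export and coactivation the counts were 5 lower, 1 higher and 8 not called, with a median of -0.15. The 6 called of 14 also lay near 40.8%. The 5 lower compare with 21.9% of all genes tested and the 1 higher with 19.0%. Ran (0.52), the GTPase of nuclear transport, was higher, whereas the coactivator genes Ep300 (-0.31) and Ncoa3 (-0.30) were lower. As over the members, the calls lay in both directions in each of these lists.

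NF-κB target genes were called in both directions. Among 42 targets, 17 were lower, 6 were higher and 19 were not called, with a median of -0.14. These 23 called of 42 compare with 40.8% of all genes tested and 49.0% of those with at least 20 CPM. In the same way the 17 lower compare with 21.9% and 26.6%, and the 6 higher with 19.0% and 22.4%. Of the targets, 5 had an FDR under 0.05 beside an absolute log2 fold change above 1.5, as 2.91% of all genes had. The largest called changes were those of Csf3 (-2.75), Csf2 (-2.07) and Il10 (-1.81). Csf3, the gene of G-CSF, rested on 10 and 12 counts in the DMSO libraries against 2 and 1 in the GSI libraries, so that the size of its change is poorly determined. Il10 fell from 309 and 357 CPM with DMSO to 79.6 and 111 CPM with GSI. Tnf, a classical NF-κB target named after its values were seen, was at 7315 and 7691 CPM with DMSO and at 8124 and 7783 CPM with GSI and was not called (0.08, edgeR quasi-likelihood FDR 0.400).

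Of 8 genes known to need IκBζ, 7 could be tested, of which 4 were lower, 2 were higher and 1 was not called (median -0.20), beside 21.9% lower and 19.0% higher among all genes tested, and 4 of the 8 (Csf2 and Csf3, and Il6 and Il12b, named only for this overlap) are in the target list too, among them 3 of the 4 that were lower. Lcn2, the gene of the iron-binding lipocalin 2, had the largest increase of this list (1.85, edgeR quasi-likelihood FDR 3.2e-04), at 0.140 and 0.370 CPM with DMSO and 0.910 and 1.03 CPM with GSI. It rested on 6 and 21 counts with DMSO and on 44 and 51 with GSI, so that the size of its change is poorly determined. In the Notch list, 7 of 16 genes could be tested, of which 6 were lower, beside 21.9% of all genes tested, and none was higher. Notch4 (-1.99), Jag2 (-1.74) and Jag1 (-0.74) had the largest changes, and Notch1 fell from 48.7 and 45.0 CPM to 30.3 and 29.9 CPM. The Notch target Hes1 had at most 5 counts in a library, too few to be tested.

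**Figure D4:**
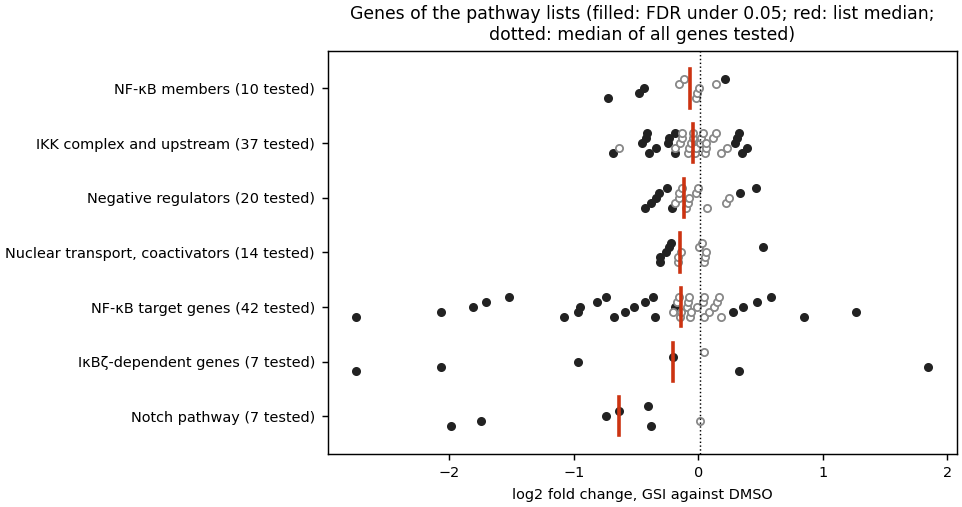
Log2 fold changes (GSI against DMSO) of the NF-κB members and of the genes of 6 related lists. Filled points have an FDR under 0.05, red bars are list medians, and the dotted line is the median of all genes tested (0.01). The 10 members lie between -0.72 and 0.21 and the 42 target genes between -2.75, in Csf3 with few counts, and 1.27.

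The 4 libraries held between 42694655 and 56932059 counts, and every member had at least 2817 counts in each. A count of 3, taken as the floor, equals 0.0527 to 0.0703 CPM. All 10 macrophage markers were detected, of which 8 were lower with GSI, beside 26.6% of the genes with at least 20 CPM, 1 was higher and 1 was not called. Cd14 (-0.64) and Itgam (-0.63) fell most, Mertk (0.64) rose, and the summed level of the list was 17280 and 17500 CPM in the DMSO libraries against 13700 and 14810 CPM in the GSI libraries. Of the dendritic cell markers, Clec9a was at 181 and 174 CPM with DMSO and at 109 and 111 CPM with GSI, while Xcr1 was between 3.44 and 5.02 CPM, Flt3 and Zbtb46 were at most 0.335 CPM and Siglech was at 0. Markers of neutrophils, B cells, T cells, mast cells, stromal cells and erythroid cells summed to between 0.0203 and 1.43 CPM for each list and library. Thus 8 of 10 macrophage markers and Clec9a and Xcr1 were lower with GSI, as Rel, Nfkb1 and Bcl3 were, whereas Zbtb46 was not called and Flt3 and Siglech were too low to be tested. Mitochondrial genes made up 0.488% and 0.413% of the counts with DMSO and 0.372% and 0.335% with GSI, and the 10 most abundant genes made up 7.25% and 7.41% against 8.41% and 8.37%. The part of these differences in the members' results was not tested. In bulk RNA, fewer cells of a type and less RNA per cell cannot be told apart.

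The decreases of Rel, Nfkb1 and Bcl3 passed the test when any single library was left out, with log2 fold changes between -0.77 and -0.68, between -0.48 and -0.40 and between -0.59 and -0.38. Nfkb2 ranged from -0.23 to -0.08, Nfkbia from 0.08 to 0.19 and Nfkbiz from -0.17 to -0.05, and none of these was called in any of these fits.

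**Figure D5:**
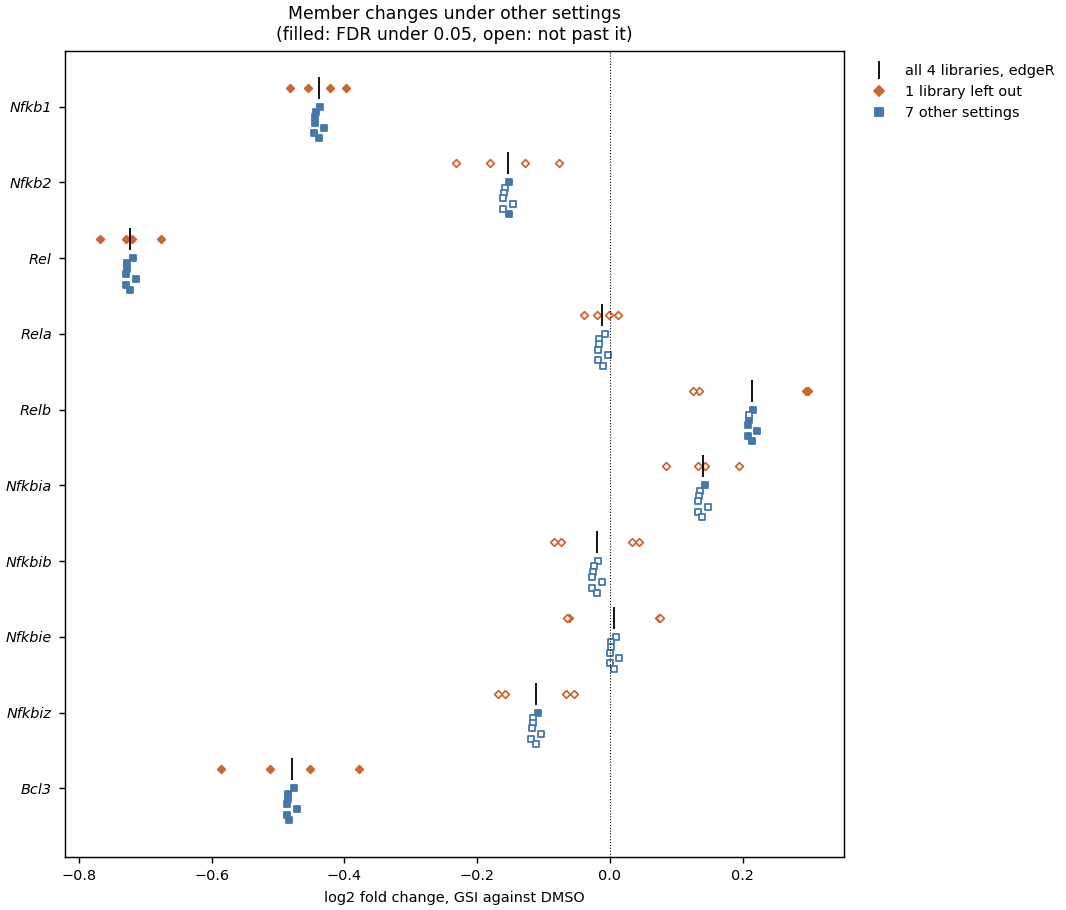
Log2 fold change of each member (GSI against DMSO) with all 4 libraries (black line), with 1 library left out (diamonds) and under 7 other settings of the test (squares, stacked vertically to be seen apart). Filled symbols have an FDR under 0.05. Rel, Nfkb1 and Bcl3 are filled throughout, Relb is open in 2 of 4 fits with a library left out, and Rela, Nfkbib and Nfkbie are open throughout.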

How the data were processed

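Strand-specific RNA-seq libraries of LPS/IC-activated BMMs were sequenced on an Illumina NextSeq system. The authors aligned reads with STAR (2.5.0a in the submitters' processing notes) to mm10, the build also called GRCm38, and deposited raw counts per gene and run from HTSeq, whose mode and strand setting are not given in the sources used here; the notes also list mm9. All 16 run columns were used. Runs belonging to the same replicate agreed within sampling noise (chi-square per degree of freedom 1.01 to 1.03, no gene with an FDR under 0.05) and were added up to 2 libraries per group.

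edgeR 4.0.16 (R 4.3.3) was run with filterByExpr, TMM, glmQLFit and glmQLFTest, and Benjamini-Hochberg adjustment over 13211 genes. The SE is the absolute log2 fold change divided by the square root of F, and CPM use TMM-adjusted library sizes. Floors cover counting error only. The steps were run on simulated data in which 200 genes were changed 4-fold. That is more than any member changed, so the simulation does not show how well changes as small as those of the members are found. Gene positions and exon lengths are from GENCODE on GRCm38 (98.9% of the gene IDs found).

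The members and the gene lists were chosen with earlier results of these data known. All members are named, and of the pathway and macrophage lists the 3 largest called changes, with Hes1 and Notch1. Defining markers of other cell types are named whatever their change, and other exceptions are marked. The alternatives were a replicate block, DESeq2 1.42.0, edgeR with RLE factors and without factors, a minimum of 10 counts per library and no filter at all, the 16 runs as separate samples, leaving out each library and, chosen after seeing the data, the length of the principal transcript.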

Additional observations from a re-analysis of the deposited data

How the results depend on the processing

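Rel, Nfkb1 and Bcl3 stayed lower and past the threshold in all 11 other fits (DESeq2, RLE factors, no factors, no filter, at least 10 counts, the replicate block, 16 runs, and each library left out). Relb was not called with DESeq2 (0.21, adjusted p 0.0548), and leaving out 1 library moved it between 0.12 and 0.30. The number of members called as higher was 0 with DESeq2, and 0 to 1 when a library was left out (0 without DMSO replicate 1 and without GSI replicate 2). With the 16 runs as separate samples, which treats runs of a library as replicates and overstates the evidence, 7 members were called (5 lower, 2 higher). Under this setting 7582 of all 11179 genes tested were called. The members added were Nfkb2 (-0.15, edgeR quasi-likelihood FDR 1.0e-04), Nfkbia (0.14, FDR 2.2e-06) and Nfkbiz (-0.11, FDR 6.1e-04). With the replicate number as a block, Nfkb2 was called (-0.15, edgeR quasi-likelihood FDR 0.0453). Calls among the negative regulators rose in both directions, from 2 to 4 higher and from 6 to 8 lower. The labels do not say that the numbers pair samples, and with 2 pairs the deviations of same-numbered libraries correlated by 0.155 over all genes tested and by 0.253 over those with at least 10 CPM. Over all genes the block moved the calls from 5392 to 6444 and changed no call of another member. Changes near 0 that were not called changed sign. Nfkbie was -8.0e-05 with RLE factors and -0.00044 with no factors, and with a library left out it ranged from -0.064 to 0.075, Rela from -0.038 to 0.011 and Nfkbib from -0.085 to 0.044. The ratio of subunits to IκB genes moved from -0.27 to -0.12 without Nfkbia. Fits that leave out a library assume that the lone library of its group varies like the others. The cause of these changes was not tested. With 2 libraries per group the intervals of Rela, Nfkbib and Nfkbie reach about 0.15 on the log2 scale to either side, and smaller differences in them were not detectable, although each had at least 9160 counts in every library.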
